A study of Caenorhabditis elegans with 63 samples.

Results

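The miRNAs described here are the Caenorhabditis elegans hairpins numbered mir-785 and above, with both arms of each hairpin. The hairpins mir-786, mir-788, mir-790, mir-791, mir-792, mir-794, mir-795, mir-1817, mir-1821, mir-1822, mir-1829 and mir-4813 were left out. The rule is written in hairpin numbers alone, but it was set with earlier results of these data known. Whether those results bore on the numbers left out is not stated. It gave 58 arms of 29 hairpins in each of 2 deposited count tables, of 276 arms of 138 hairpins in each. Arms with at least 10 reads in 3 or more libraries were tested, which 27 of the 58 arms reached over the NEBNext libraries and 19 over the bias-minimized libraries. All 58 are accounted for below.

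A miRNA begins as a hairpin in a primary transcript. Microprocessor, the complex of the nuclease Drosha (drsh-1 in worms) and its RNA-binding partner PASH-1, cuts the hairpin out, Dicer frees a short duplex, and the strand that an Argonaute protein keeps becomes the mature miRNA. The other strand is usually lost and is marked with a star where the files name it so. Mirtrons, whose hairpins are released by splicing, do not need Drosha. miRNA numbers follow the order of discovery, so high numbers came largely from deep sequencing and many of them belong to rare miRNAs.

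Small RNA of whole worms grown at 20 °C was sequenced in 63 libraries of 23 groups, and the study's title names a disordered region of Drosha in miRNA production. 2 library protocols were used, the NEBNext kit and adaptors with degenerate bases, which are meant to even out ligation. The 22 NEBNext libraries cover drsh-1(cdb328), drsh-1(cdb330) and wild type, with 3 libraries each in Adults and 3 each at L4, the last larval stage. They also cover Adults that carry drsh-1::gfp and tdp-1::mScarlet together with drsh-1(null), and Adults with both tags alone, with 2 libraries each. The 41 bias-minimized libraries hold Adults of cdb328, cdb330 and wild type (3 libraries each) and a series of 32 libraries in 12 groups for which no stage is given, called the mir-80 series here. In it, drsh-1(cdb263 cdb328) worms were set against worms with intact drsh-1, both with normal mir-80 and with each of the mir-80 alleles cdb493, cdb494, cdb495 and cdb496. With the mir-80 allele cdb530 the drsh-1 change was cdb328 alone. These groups have 2 or 3 libraries. The series text calls the drsh-1 alleles deletion mutants, and the labels do not say what each allele removes. Each bias-minimized Adult library carries the library name of the NEBNext Adult library of the same genotype and replicate number, with a suffix. They may be second preparations of the same samples, so the Adult sets of the 2 protocols may not be independent. The labels do not say whether replicates are separate cultures. The p-values therefore cover the spread among the libraries of a group, which may be technical.

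Libraries held 1891780 to 5565918 miRNA reads with NEBNext, 578859 to 2585561 in the bias-minimized Adults and 155736 to 2355231 in the mir-80 series. The tables hold miRNAs only, so drsh-1 itself was not measured. miR-80-3p, the product of the gene changed in the mir-80 series, lay between 587 and 46356 reads scaled to 1000000 miRNA reads per library (CPM) in libraries with a mir-80 allele and between 62624 and 85831 CPM in those with normal mir-80. Whole animals were sequenced, so fewer cells of a type and less RNA per cell cannot be told apart.

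All 29 hairpins were found by name in the WBcel235 annotation (Ensembl 115). No source used here gives the build the authors used. Chromosomes IV and X hold 10 hairpins each, II holds 4, I holds 3 and III holds 2. Of the 29, 17 lie outside protein-coding genes, 1 of them (mir-4808) in an intron of a non-coding RNA gene. Another 8 lie in introns of protein-coding genes on the same strand, 2 (mir-2218a and mir-789-2) in introns on the opposite strand, and 2 overlap an exon. mir-2210 (IV:10914618-10914678) overlaps an exon of ZK593.2, and mir-789-1 (IV:16740693-16740789) overlaps an exon of Y51H4A.24. mir-787 (X:11294708-11294797), mir-1820 (IV:7767461-7767567), mir-799 (X:8600643-8600735) and mir-800 (X:380919-380991) lie between protein-coding genes. mir-785 (X:3004668-3004761) is 268 bases from mir-359, and mir-1819 (X:16207955-16208035) is 67 bases from mir-2212. mir-2208a, mir-2208b, mir-2209a, mir-2209b and mir-2209c form a cluster on chromosome IV. The intronic hairpins include mir-4806 (II:12346299-12346381) in ras-1, a Ras-family GTPase gene, mir-1830 (II:4371838-4371907) in paic-1, a gene of purine synthesis, mir-2953 (II:6747182-6747242) in F41G3.5 and mir-4812 (X:15242774-15242849) in piki-1, a phosphoinositide 3-kinase gene. None of the 8 hairpins in same-strand introns fills its intron as a mirtron does, and their ends lay 101 to 2398 bases from the splice sites. The mirtrons mir-1018, mir-1019 and mir-1020 have no row among those analysed.

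Most of these miRNAs were rare. In wild type, the median level of the 58 arms was 1.23 CPM in Adults and 1.46 CPM at L4 with NEBNext, beside 56.3 CPM and 105 CPM for the 218 other arms. With bias-minimized adaptors it was 1.19 CPM in Adults and 1.02 CPM in the mir-80 series, beside 107 CPM and 124.5 CPM for the other arms. The summed share of miRNA reads was small too, with a median of 0.197% over the NEBNext libraries, 0.1003% over the bias-minimized Adults and 0.133% over the mir-80 series. 3 arms went against the picture of low abundance in every wild-type NEBNext library. miR-1820-5p averaged 746 ± 29.2 CPM in wild-type Adults and 852 ± 22.5 CPM in L4 larvae (SD, n = 3 each), ranks 55 and 56 of 276 arms. miR-785-3p averaged 464 ± 60.6 CPM in Adults and 715 ± 48.3 CPM at L4, and miR-787-3p 286 ± 40.6 CPM in Adults and 354 ± 21.5 CPM at L4 (SD, n = 3 each). These 3 arms held 90.4% of all reads of the late-numbered arms in wild-type Adults and 85.8% at L4. With bias-minimized adaptors both 3p* arms of mir-789 joined them at 148 ± 18.2 CPM and 149 ± 23.0 CPM in wild-type Adults (SD, n = 3). miR-787-3p was at 61.4 ± 10.6 CPM there (SD, n = 3).

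Of the 58 arms, 31 were tested in at least 1 of 14 comparisons and 24 passed an adjusted p of 0.05 in at least 1, where 90.9% of all 230 arms tested did so. Adjusted p-values come from the quasi-likelihood test of edgeR, adjusted by Benjamini and Hochberg's method over all arms tested, and fold changes are log2 differences after TMM scaling, with their SE. 7 tested arms passed in none, among them miR-785-3p, the second most abundant. Over the comparisons of cdb328 or cdb263 cdb328 with intact drsh-1, 17 of the 31 arms, from 13 hairpins, were lower in at least 1, and 2 arms of 1 hairpin, mir-1820, were higher. Over all arms tested, 40% were lower and 42.2% higher in at least 1 of these comparisons.

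**Figure D1:**
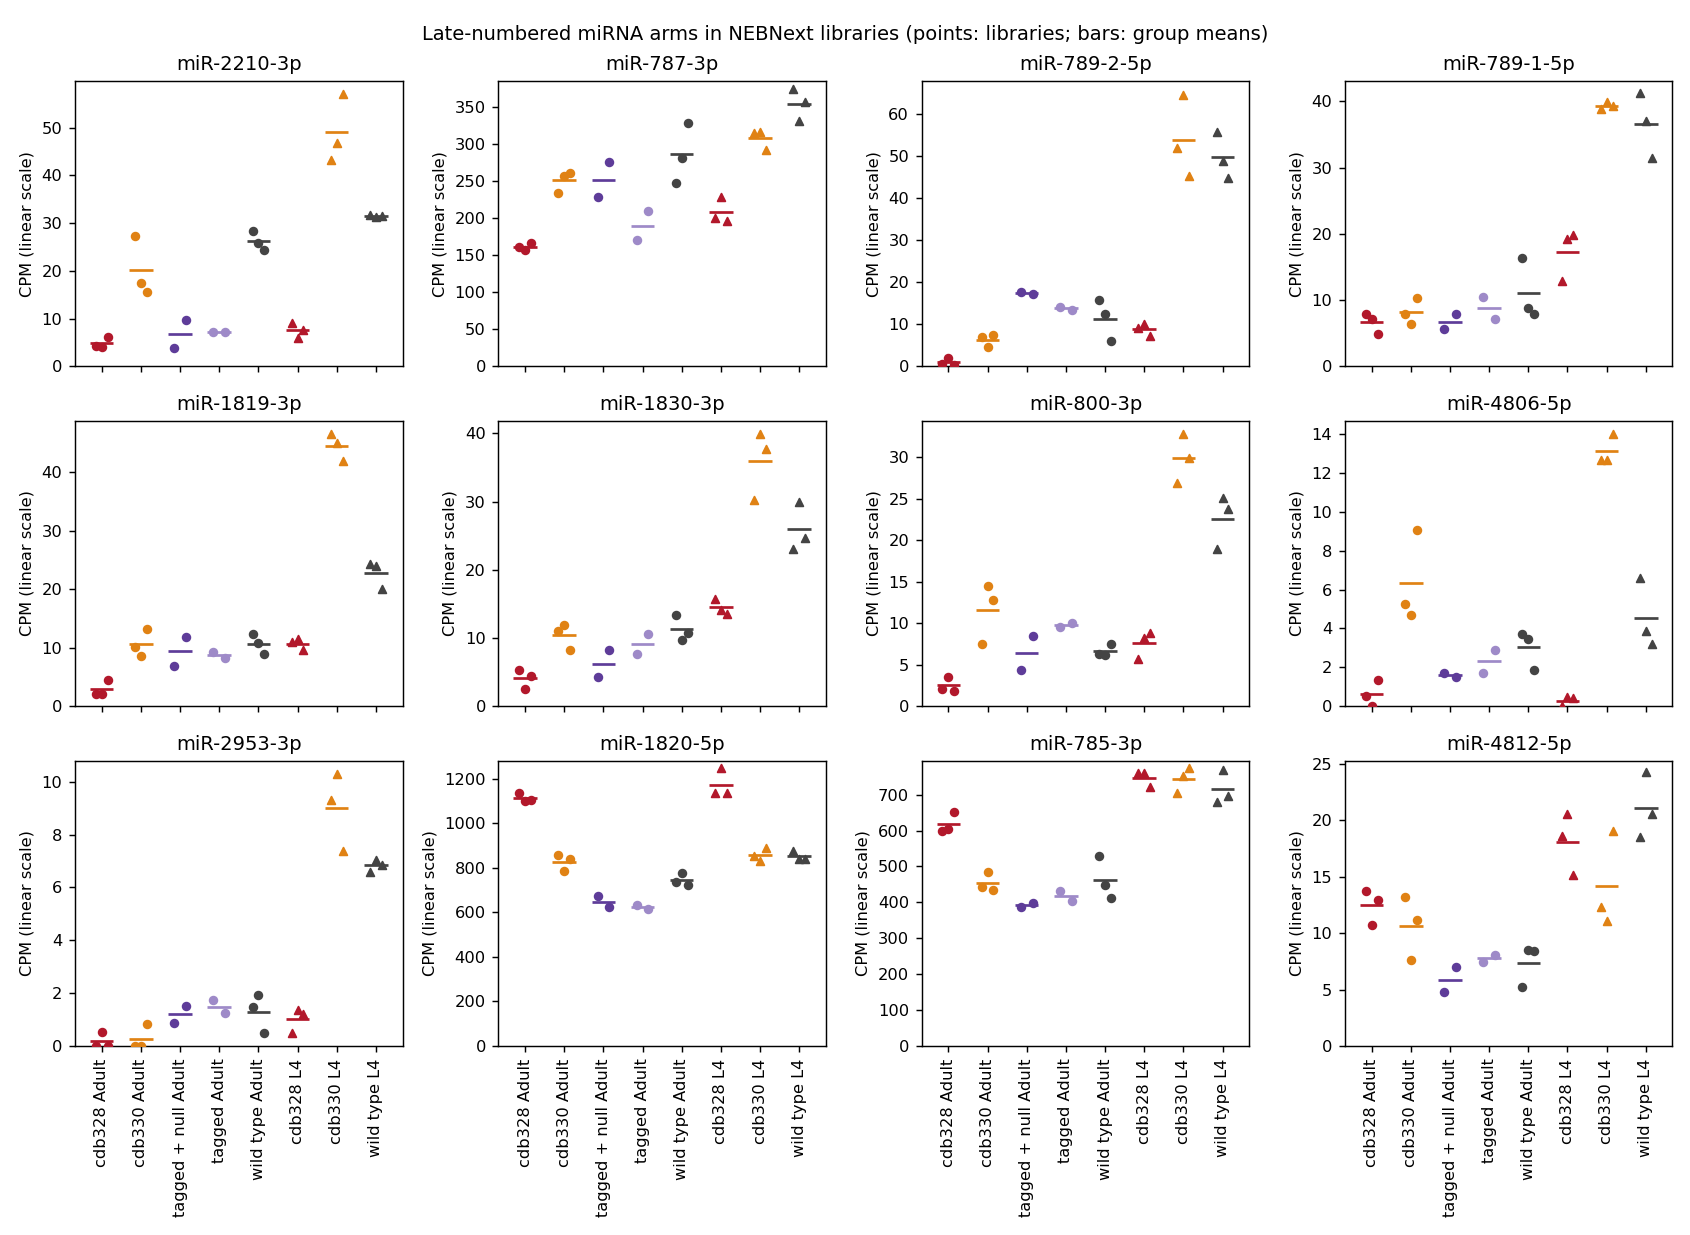
Levels of 12 late-numbered arms in the NEBNext libraries, in CPM on a linear scale from 0. Circles are Adult libraries, triangles L4 libraries and bars group means. miR-2210-3p lies at 4.08 to 9.07 CPM in the cdb328 libraries of both stages and at 24.4 to 31.8 CPM in those of wild type, whereas miR-1820-5p is above wild type in cdb328.

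In cdb328 at L4, 10 of the 27 tested late-numbered arms passed, 9 lower and 1 higher than in wild type. Of all 216 arms tested, 56.9% passed, 25.9% lower and 31% higher. In Adults 12 of 27 passed, 11 lower and 1 higher, where 49.1% of all arms passed, 31% lower and 18.1% higher. Lower calls prevailed among these arms at L4, where lower and higher calls were about as frequent over all arms. The median log2 fold change of the 27 arms was -0.17 at L4 and -0.34 in Adults, beside 0.03 and -0.04 over all arms tested. All 9 arms that were lower at L4 were also lower in Adults, and the matching share over all arms was not taken. These counts and medians describe the arms that passed the filter, which some arms passed through cdb330 and wild-type libraries alone.

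miR-2210-3p was among the most reduced at both stages. It was at 9.07, 5.93 and 7.57 CPM in cdb328 L4 larvae, against 31.8, 31.4 and 31.5 CPM in wild type. In Adults it was at 4.23, 4.08 and 6.25 CPM in cdb328, against 28.3, 25.8 and 24.4 CPM in wild type. The groups did not overlap at either stage. The log2 fold changes were -1.88 ± 0.25, adjusted p = 1.05e-06 at L4 and -2.51 ± 0.29, adjusted p = 7.83e-08 in Adults. Its genomic position overlaps an exon of ZK593.2 on the same strand.

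miR-789-2-5p had estimates further from 0. Levels of 9.07, 10.04 and 7.17 CPM in cdb328 L4 larvae stood against 55.7, 48.7 and 44.7 CPM in wild type. In Adults, cdb328 had 0.529, 2.04 and 0.446 CPM and wild type 15.6, 12.3 and 6.101 CPM. No cdb328 library reached the lowest wild-type library of its stage, with -2.32 ± 0.27, adjusted p = 1.04e-07 at L4 and -3.61 ± 0.51, adjusted p = 2.01e-06 in Adults on the log2 scale. The 5p arm of the second copy, miR-789-1-5p, was also lower, with 12.9, 19.2 and 19.9 CPM in cdb328 L4 larvae and 41.3, 37.04 and 31.5 CPM in wild type (-0.89 ± 0.24, adjusted p = 0.00327). In Adults it was at 7.93, 7.15 and 4.91 CPM in cdb328 and 16.4, 8.86 and 7.98 CPM in wild type (-0.88 ± 0.33, adjusted p = 0.0313). The Adult call of miR-789-1-5p was lost without wild-type Adult replicate 1 or cdb328 Adult replicate 3 (adjusted p up to 0.321). The opposite arms, both 3p*, were tested and did not pass at either stage. miR-789-2-3p* was at 5.73, 3.19 and 1.19 CPM in cdb328 L4 larvae and 4.13, 3.88 and 4.56 CPM in wild type. In Adults it was at 4.23, 1.53 and 1.34 CPM in cdb328 and 0, 2.70 and 2.82 CPM in wild type. The 2 hairpins are near-identical copies, and no source used here states how the counting divided reads that match both. Values of single copies are therefore uncertain.

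The intronic miR-4806-5p and miR-2953-3p were close to absent in cdb328. miR-4806-5p was at 0, 0.456 and 0.398 CPM in cdb328 L4 larvae, against 6.602, 3.88 and 3.19 CPM in wild type, which is 2 reads against 34 and a ratio of 0.0645 (95% counting interval 0.00750 to 0.252). In Adults it was at 0.529, 0 and 1.34 CPM in cdb328 and 3.73, 3.47 and 1.88 CPM in wild type. The fitted log2 fold changes were -3.55 ± 0.75, adjusted p = 3.10e-04 and -2.27 ± 0.71, adjusted p = 0.00954 in Adults. miR-2953-3p was at 0.477, 1.37 and 1.19 CPM in cdb328 L4 larvae and 6.602, 7.05 and 6.84 CPM in wild type (-2.49 ± 0.52, adjusted p = 2.82e-04). Both groups were lower in Adults, at 0, 0.5104 and 0 CPM in cdb328 and 1.49, 1.93 and 0.469 CPM in wild type. There 1 read stood against 10, a ratio of 0.122 (counting interval 0.00280 to 0.855), and although the arm was called (-2.83 ± 1.07, adjusted p = 0.0313), the groups overlapped. That call was lost without wild-type Adult replicate 1 or 2 or cdb328 Adult replicate 1 or 3 (adjusted p up to 0.118). miR-2953-3p reached 10 reads in cdb330 and wild-type L4 libraries alone, and miR-4806-5p in cdb330 and wild-type libraries alone, so the filter favoured arms lower in cdb328. Intervals cover counting error only.

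3 further arms between genes or in introns were lower without overlap at both stages. miR-1819-3p was at 2.11, 2.04 and 4.46 CPM in cdb328 Adults, against 12.3, 10.8 and 8.92 CPM in wild type (-1.96 ± 0.33, adjusted p = 2.77e-05), and at 10.97, 11.4 and 9.56 CPM in cdb328 L4 larvae, against 24.3, 23.98 and 20.1 CPM in wild type (-0.92 ± 0.23, adjusted p = 0.00174). miR-1830-3p was at 5.29, 2.55 and 4.46 CPM in cdb328 Adults and 13.4, 9.63 and 10.8 CPM in wild type (-1.56 ± 0.31, adjusted p = 1.93e-04). Its L4 estimate was smaller, with 15.7, 14.1 and 13.5 CPM in cdb328 and 23.1, 29.98 and 24.6 CPM in wild type (-0.66 ± 0.22, adjusted p = 0.0136), and its call was lost without wild-type L4 replicate 2 (adjusted p up to 0.0762). These 2 arms thus had larger negative estimates in Adults, but the test of the difference between stages did not pass for either (adjusted p = 0.133 and 0.17). miR-800-3p changed by much the same at both stages, at 5.73, 8.22 and 8.76 CPM in cdb328 L4 larvae against 18.98, 25.04 and 23.7 CPM in wild type (-1.38 ± 0.26, adjusted p = 8.84e-05), and 2.11, 3.57 and 1.79 CPM in cdb328 Adults against 6.33, 6.16 and 7.51 CPM in wild type (-1.51 ± 0.40, adjusted p = 0.00283).

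The abundant arms changed less and in opposite directions. miR-787-3p was at 200.4, 228 and 197 CPM in cdb328 L4 larvae, against 374, 332 and 357 CPM in wild type (-0.59 ± 0.11, adjusted p = 8.69e-05). In Adults it was at 161, 157 and 166 CPM in cdb328 and 248, 282 and 329 CPM in wild type (-0.92 ± 0.11, adjusted p = 2.37e-07). Every cdb328 library lay below every wild-type library of its stage. miR-1820-5p was higher instead, at 1135, 1251 and 1135 CPM in cdb328 L4 larvae against 878, 839.8 and 839 CPM in wild type (0.64 ± 0.10, adjusted p = 8.09e-06), and 1135, 1099 and 1103 CPM in cdb328 Adults against 735, 779 and 724 CPM in wild type (0.48 ± 0.10, adjusted p = 2.93e-04). When libraries were scaled to the spike-ins in place of TMM, its estimates stayed positive but did not pass (0.37, adjusted p = 0.139 at L4 and 0.31, adjusted p = 0.22 in Adults). miR-785-3p, whose levels in cdb328 Adults were 598, 604 and 652 CPM and in wild type 530.1, 449 and 412 CPM, did not pass (0.30 ± 0.13, adjusted p = 0.0573). On the spike-in scale none of the 27 late-numbered arms was called higher, while 9 were lower at L4 and 11 in Adults. Spike-in scaling of all 216 arms tested left 15 raised in cdb328 L4 larvae, against 65 reduced. For cdb328 Adults it left 23 raised, against 70 reduced. That scale shifted the median of all arms by -0.29 at L4 and -0.15 in Adults.

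2 more arms were called in Adults alone. miR-796-5p was at 2.11, 2.04 and 0.893 CPM in cdb328 Adults and 4.84, 3.85 and 3.29 CPM in wild type (-1.38 ± 0.52, adjusted p = 0.0323). At L4 its levels were 3.82, 3.19 and 1.99 CPM in cdb328 and 2.06, 2.12 and 1.83 CPM in wild type, and the difference between stages did not pass (adjusted p = 0.0886). miR-1832a-5p* was at 1.06, 1.02 and 4.46 CPM in cdb328 Adults and 4.47, 3.85 and 9.39 CPM in wild type, with overlap (-1.40 ± 0.53, adjusted p = 0.0321). The call of miR-796-5p was lost without wild-type Adult replicate 1 or 2 or cdb328 Adult replicate 1 or 3 (adjusted p up to 0.151), and that of miR-1832a-5p* without wild-type Adult replicate 3 or cdb328 Adult replicate 1 or 2 (adjusted p up to 0.196). miR-796-5p reached 10 reads only in cdb330 and wild-type Adults. DESeq2 called neither arm (adjusted p = 0.0746 and 0.0563). For the difference of the cdb328 effect between stages, none of the 27 arms passed with edgeR, 4 had an unadjusted p below 0.05, DESeq2 called 0, and 3.24% of all arms passed.

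**Figure D2:**
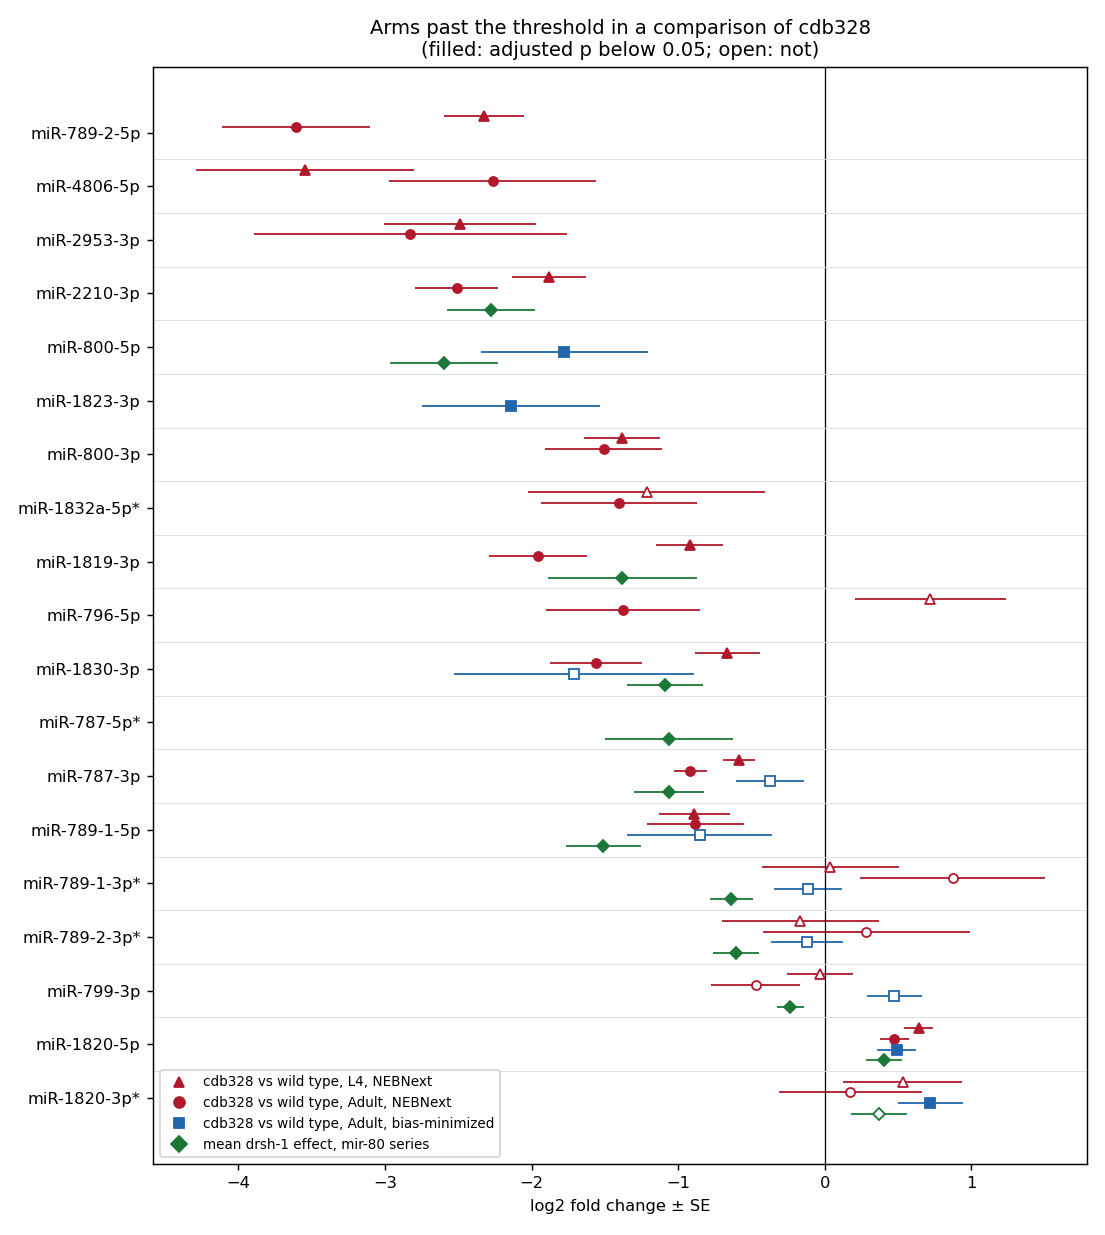
Log2 fold changes ± SE of the arms that passed in at least 1 comparison of cdb328 or cdb263 cdb328, with filled points for an adjusted p below 0.05 and open points otherwise. The mean over the mir-80 backgrounds is not drawn for miR-789-2-5p, for which the mutant and wild-type groups with normal mir-80 held 2 and 0 reads. Points of mir-1820 lie right of 0 and those of miR-2210-3p between -2.51 and -1.88.

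The mir-80 series repeats the drsh-1 comparison on 6 mir-80 backgrounds, with other libraries and the other adaptors. Averaged over the backgrounds, 11 of 18 tested late-numbered arms passed, 10 lower and 1 higher in the drsh-1 mutants, where 59.1% of all 208 arms passed, 29.3% lower and 29.8% higher. The median log2 fold change was -0.62 over the 18 arms and 0.02 over all arms tested. Of the 18, 6 (miR-1819-3p, miR-1830-5p*, miR-2210-3p, miR-787-5p*, miR-789-2-5p and miR-800-5p) reached 10 reads in libraries with intact drsh-1 alone. The filter thus favoured lower values in the mutants, and the count and the median describe the tested arms only. miR-2210-3p reached 10 reads in every NEBNext group of cdb328, cdb330 and wild type. Of 6 arms that were lower in cdb328 at L4 and tested here, 5 were lower here too (miR-1819-3p, miR-1830-3p, miR-2210-3p, miR-787-3p and miR-789-1-5p). Of these, miR-1819-3p and miR-2210-3p entered the test here through libraries with intact drsh-1 alone. The matching share over all arms was not taken, so the repeat is no result about these arms as a set. On the normal mir-80 background alone, 1 of 18 passed, miR-2210-3p, where 19.2% of all arms passed, 12.5% lower and 6.73% higher.

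miR-2210-3p had lower levels on every background. The lowest, median and highest levels were 0, 1.7005 and 6.61 CPM over the 16 drsh-1 mutant libraries, against 2.96, 10.1 and 19.2 CPM over the 16 libraries with intact drsh-1, and the reads summed to 23 and 154. Within each of the 6 backgrounds the groups did not overlap, and the log2 fold changes ran from -3.14 to -1.40, with a mean of -2.28 ± 0.30, adjusted p = 9.35e-07. The arm entered this test through libraries with intact drsh-1 alone, and the lack of overlap rests on few reads. Whole mutant groups held 3, 3 and 1 reads with cdb495, cdb496 and cdb530. With normal mir-80 the mutant libraries held 2, 3 and 1 reads and wild type 9, 14 and 1. On the normal mir-80 background it was at 2.13, 2.62 and 1.14 CPM in drsh-1(cdb263 cdb328) and 6.64, 11.1 and 2.96 CPM in wild type (-1.81 ± 0.62, adjusted p = 0.0441). That single-background call was lost without wild-type replicate 1 or 2 or cdb263 cdb328 replicate 1, 2 or 3 (adjusted p up to 0.145), and DESeq2 did not make it (adjusted p = 0.0911).

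miR-800-5p, the arm opposite to the miR-800-3p arm described above, was lower as well. Its lowest, median and highest levels were 0, 2.08 and 4.01 CPM in the mutant libraries and 2.86, 8.76 and 16.7 CPM in the intact ones. The estimate was negative on all 6 backgrounds, without overlap on 5, and the mean was -2.60 ± 0.37, adjusted p = 3.02e-06. This arm too entered the test through libraries with intact drsh-1 alone, and the mutant groups with cdb493 and cdb494 held 2 reads each. Both mutant libraries with cdb530 held 0 reads of it, and without the cdb530 groups the mean was -1.98 ± 0.33 (adjusted p = 3.24e-05). miR-789-1-5p and miR-787-3p were negative on all 6 backgrounds as well. miR-789-1-5p ranged over 2.01, 4.74 and 9.69 CPM (lowest, median, highest) in mutant libraries and 0, 14.8 and 44.9 CPM in intact ones (-1.51 ± 0.26, adjusted p = 2.77e-05). miR-787-3p ranged over 10.4, 39.7 and 62.7 CPM in mutant libraries and 25.7, 92.1 and 123 CPM in intact ones (-1.06 ± 0.24, adjusted p = 5.05e-04).

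The 3p* arms of mir-789 are abundant with these adaptors, and their estimates were positive with cdb530 and negative otherwise. miR-789-1-3p* ranged over 75.4, 123 and 510.2 CPM (lowest, median, highest) in the mutant libraries and 165, 234 and 482 CPM in the intact ones, with a mean log2 fold change of -0.64 ± 0.15, adjusted p = 8.75e-04. The mean for miR-789-2-3p* was -0.61 ± 0.16, adjusted p = 0.00199. Both were negative on 5 backgrounds and positive with cdb530 (0.71 and 0.75), where the drsh-1 allele was cdb328 alone. Whether the cdb530 background differs from the others was not tested. Without the cdb530 groups the means were -0.91 ± 0.17 and -0.88 ± 0.17 (adjusted p = 1.11e-04 and 2.12e-04).

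Among the remaining arms, miR-1830-3p was lower on 5 of 6 backgrounds (-1.09 ± 0.26, adjusted p = 0.00102) and miR-1819-3p on 6 of 6 (-1.38 ± 0.51, adjusted p = 0.0235). The call of miR-1819-3p was lost without drsh-1-intact cdb494 replicate 1 (adjusted p up to 0.999), where the library left in that group had no read of it. miR-787-5p*, at 0, 2.24 and 3.76 CPM (lowest, median, highest) in mutant and 0, 4.01 and 14.1 CPM in intact libraries, passed at -1.06 ± 0.44, adjusted p = 0.0413, and this call ended when any of 12 libraries was left out. These were drsh-1-intact cdb493 replicate 3, cdb263 cdb328 with cdb493 replicate 1, wild-type replicate 2, cdb263 cdb328 replicate 2, cdb263 cdb328 with cdb495 replicate 3, cdb263 cdb328 with cdb496 replicate 3, cdb263 cdb328 with cdb494 replicate 1 or 2, drsh-1-intact cdb494 replicate 1, drsh-1-intact cdb530 replicate 3 or cdb328 with cdb530 replicate 1 or 2 (adjusted p up to 0.974). miR-799-3p differed little, at 51.9, 92.7 and 155 CPM in mutant and 61.6, 121 and 172 CPM in intact libraries (-0.23 ± 0.09, adjusted p = 0.0302), and did not pass without the cdb530 groups (adjusted p = 0.0927). Its call was also lost without wild-type replicate 3, drsh-1-intact cdb495 replicate 2, drsh-1-intact cdb530 replicate 3 or cdb328 with cdb530 replicate 2 (adjusted p up to 0.062). miR-1820-5p was again higher, at 148, 419.8 and 576 CPM in mutant and 90.004, 316 and 494 CPM in intact libraries (0.40 ± 0.12, adjusted p = 0.00624). It did not pass on the spike-in scale (0.05, adjusted p = 0.918), which shifted the median of all arms by -0.35 and left 0 arms higher and 11 lower among the 18. Of all 208 arms tested, 13 were higher and 79 lower on that scale. miR-785-3p did not pass (-0.08 ± 0.10, adjusted p = 0.513).

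**Figure D3:**
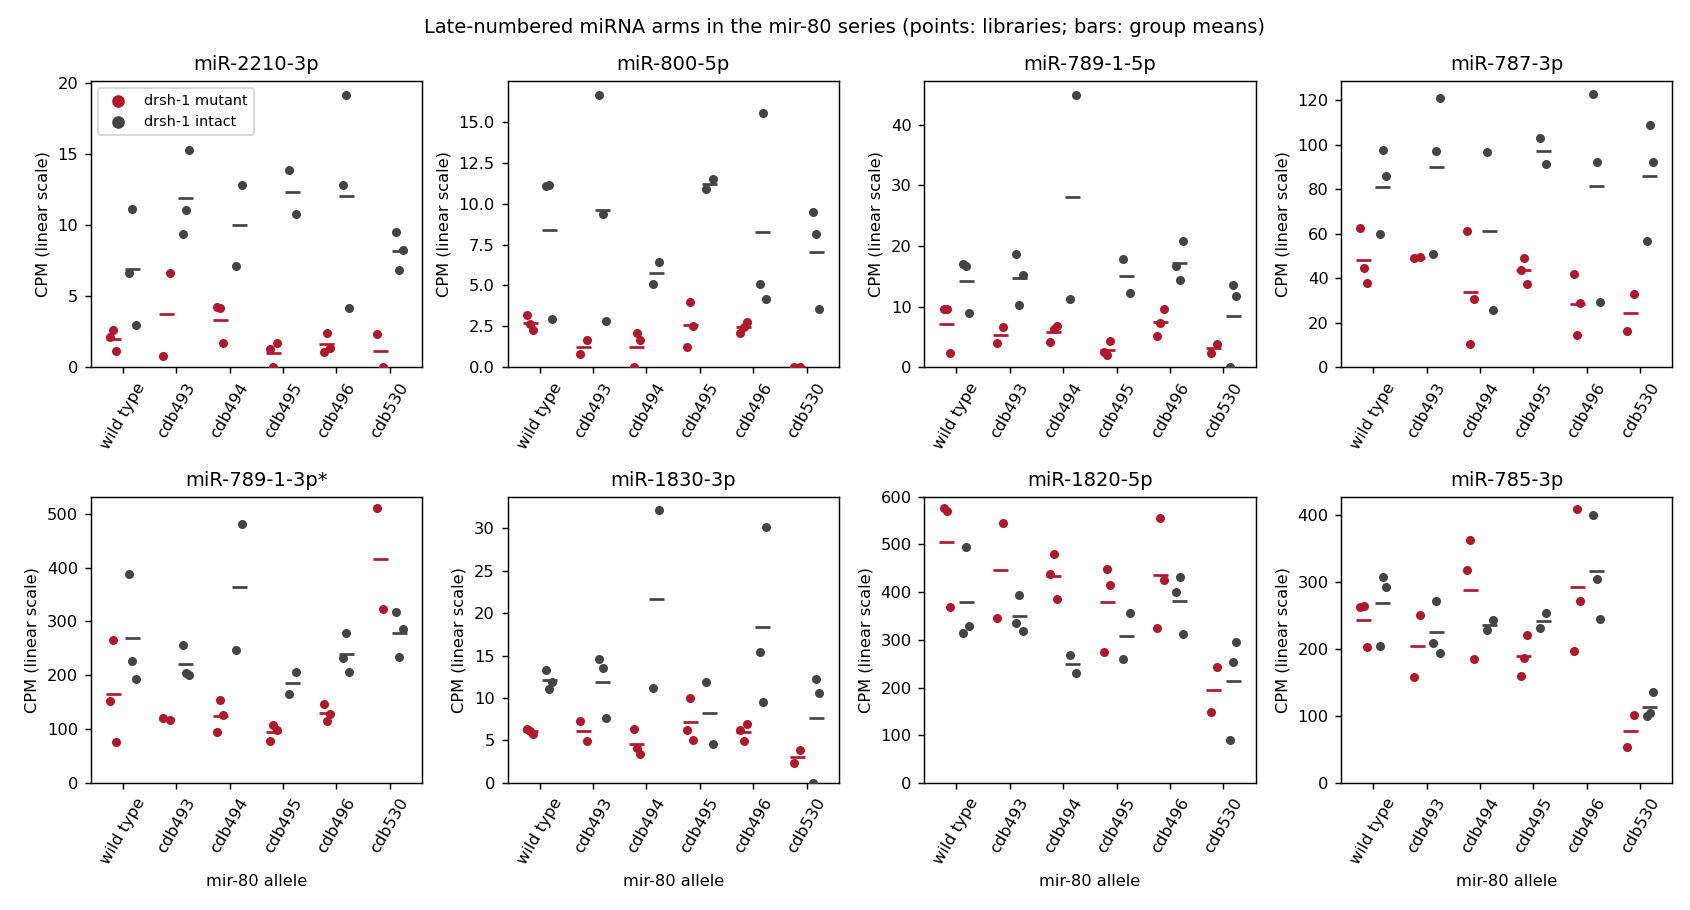
Levels of 8 late-numbered arms in the mir-80 series, in CPM on a linear scale from 0, by mir-80 allele. Red points are drsh-1 mutant libraries, grey points libraries with intact drsh-1 and bars group means. The red points of miR-2210-3p lie below the grey ones on every background, and those of miR-789-1-3p* lie above the grey ones with cdb530.

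The mir-80 alleles themselves, with drsh-1 intact, moved none of the 18 arms past the threshold against wild type, averaged over 5 alleles. With edgeR's test 2 arms had an unadjusted p below 0.05, DESeq2 called 0, and 3.37% of all arms passed. Levels of miR-2210-3p were between 4.16 and 19.2 CPM in the 13 libraries with a mir-80 allele and 6.64, 11.1 and 2.96 CPM in wild type.

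In the bias-minimized Adults, 4 of 14 tested late-numbered arms passed between cdb328 and wild type, 2 lower and 2 higher, where 46.2% of all 197 arms passed, 25.4% lower and 20.8% higher. miR-1823-3p was at 0.7903, 0.571 and 3.46 CPM in cdb328 and 8.01, 5.39 and 4.798 CPM in wild type (-2.14 ± 0.61, adjusted p = 0.0227). miR-800-5p was at 1.58, 3.42 and 0 CPM in cdb328 and 8.63, 8.08 and 5.76 CPM in wild type (-1.78 ± 0.57, adjusted p = 0.0345). Both groups were apart for each of these arms, and both arms reached 10 reads only in cdb330 and wild-type libraries. Both arms of mir-1820 were higher in cdb328. miR-1820-5p was at 341, 379 and 295 CPM in cdb328 and 308, 218 and 254 CPM in wild type, with overlap (0.49 ± 0.13, adjusted p = 0.0184). On the spike-in scale its estimate was -0.00 (adjusted p = 0.992). miR-1820-3p* was at 28.5, 22.8 and 32.8 CPM in cdb328 and 20.3, 17.95 and 16.3 CPM in wild type (0.72 ± 0.22, adjusted p = 0.0293).

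The same-numbered libraries of this set deviated together, and with the replicate number as a block miR-1820-3p* did not pass (0.69, adjusted p = 0.0641), so that 1 arm was higher and 2 were lower. All arms with the block gave 39 higher and 53 lower. With spike-in scaling 0 arms were higher and 3 lower, with a median shift of -0.49 over all arms, and with total counts 0 were higher and 2 lower. Of all 197 arms tested, 5 were higher and 75 lower with spike-ins, and 30 higher and 53 lower with total counts. With cdb328 and wild type fitted alone, none of the 4 calls was made, where 29 of all 181 arms tested were higher and 43 lower. Both mir-1820 arms then did not pass, at adjusted p = 0.0914 for miR-1820-5p and 0.0518 for miR-1820-3p*, and the other 2 arms did not reach the filter. The calls of miR-1820-3p*, miR-800-5p and miR-1823-3p were each lost without at least 1 library. For miR-1820-3p* these were wild-type Adult replicate 3 or cdb328 Adult replicate 1 or 3 (adjusted p up to 0.0804). For miR-800-5p they were wild-type Adult replicate 2 or 3 or cdb328 Adult replicate 1 (adjusted p up to 0.099), and for miR-1823-3p cdb328 Adult replicate 1 or 2 (adjusted p up to 0.0752). Arms reduced with NEBNext had low counts here. miR-2210-3p was at 0, 1.71 and 0 CPM in cdb328 and 3.698, 5.39 and 6.72 CPM in wild type and did not reach the filter. miR-787-3p was at 36.4, 40.5 and 55.3 CPM in cdb328 and 49.9, 70.9 and 63.3 CPM in wild type (-0.37 ± 0.23, adjusted p = 0.231). The 3p* arms of mir-789, abundant with these adaptors, were tested and not called. miR-789-1-3p* was at 139, 88.5 and 152 CPM in cdb328 and 163, 153 and 128 CPM in wild type. miR-789-2-3p* was at 150, 95.9 and 136 CPM in cdb328 and 160, 165 and 123 CPM in wild type.

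The second allele, cdb330, also gave calls at L4, at shares near those over all arms. In all, 9 of the 27 tested arms passed with NEBNext, 3 higher and 6 lower than in wild type, where 31% of all arms passed, 10.6% higher and 20.4% lower. All 3 arms that were higher, miR-1819-3p, miR-4806-5p and miR-2210-3p, were lower in cdb328, a comparison that shares the wild-type libraries. The matching share over all arms was not taken. miR-1819-3p was at 46.6, 45.1 and 41.97 CPM in cdb330 L4 larvae, against 24.3, 23.98 and 20.1 CPM in wild type (0.86 ± 0.19, adjusted p = 0.00116). miR-4806-5p was at 12.7, 12.7 and 13.99 CPM in cdb330 and 6.602, 3.88 and 3.19 CPM in wild type (1.41 ± 0.35, adjusted p = 0.00296). For both arms the groups did not overlap. miR-2210-3p was at 43.3, 46.7 and 57.1 CPM in cdb330 and 31.8, 31.4 and 31.5 CPM in wild type (0.54 ± 0.20, adjusted p = 0.0401). Its call was lost without wild-type L4 replicate 1, 2 or 3 or cdb330 L4 replicate 1 or 3 (adjusted p up to 0.208).

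The 6 lower arms were mostly rare. miR-5594-3p was at 1.12, 2.38 and 1.94 CPM in cdb330 L4 larvae and 4.95, 7.76 and 5.48 CPM in wild type (-1.83 ± 0.46, adjusted p = 0.00378). Both arms of mir-4812 were lower. miR-4812-3p* was at 2.61, 3.17 and 4.28 CPM in cdb330 and 6.19, 7.76 and 7.301 CPM in wild type (-1.17 ± 0.35, adjusted p = 0.0143), and miR-4812-5p at 12.3, 11.1 and 19.04 CPM in cdb330 and 18.6, 24.3 and 20.5 CPM in wild type, with overlap (-0.68 ± 0.24, adjusted p = 0.0335). miR-4808-3p, miR-2209a-3p and miR-787-3p were lower as well. Their log2 fold changes were -1.28 ± 0.46 (adjusted p = 0.0398), -1.85 ± 0.60 (adjusted p = 0.0221) and -0.31 ± 0.11 (adjusted p = 0.0347). miR-2209a-3p rests on uneven libraries, with 0.373, 2.38 and 2.33 CPM in cdb330 and 3.71, 2.47 and 11.9 CPM in wild type.

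Of these 6, the call of miR-5594-3p held without any single library. miR-4812-3p* was lost without cdb330 L4 replicate 1 or 2 (adjusted p up to 0.0736) and miR-4812-5p without wild-type L4 replicate 2 or 3 or cdb330 L4 replicate 1 or 2 (adjusted p up to 0.222). miR-4808-3p was lost without wild-type L4 replicate 1 or 2 or cdb330 L4 replicate 1 or 2 (adjusted p up to 0.224) and miR-2209a-3p without wild-type L4 replicate 3 or cdb330 L4 replicate 1 (adjusted p up to 0.283). miR-787-3p was lost without wild-type L4 replicate 1 or 3 or cdb330 L4 replicate 2 or 3 (adjusted p up to 0.29). Spike-in scaling shifted the median of all arms by 0.64 here, and on that scale 14 late-numbered arms were higher and 2 lower, with miR-787-3p at 0.34. Of all 216 arms tested, 126 were higher and 17 lower on that scale.

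In Adults, cdb330 moved none of the 27 arms past the threshold with edgeR, where 7.41% of all arms passed, 2.78% higher and 4.63% lower. An unadjusted p below 0.05 was reached by 5 arms, and DESeq2 called 0. miR-2210-3p was at 27.3, 17.4 and 15.7 CPM in cdb330 Adults and 28.3, 25.8 and 24.4 CPM in wild type, with overlap. miR-4806-5p, at 5.28, 4.67 and 9.07 CPM in cdb330 and 3.73, 3.47 and 1.88 CPM in wild type, did not pass either (1.02 ± 0.42, adjusted p = 0.162). In the bias-minimized Adults none of 14 arms passed for cdb330 with edgeR, where 0.508% of all arms passed. There 1 arm, miR-1820-5p, had an unadjusted p below 0.05 (0.49 ± 0.13, adjusted p = 0.109), and DESeq2 called 1. The difference of the cdb330 effect between Adults and L4 was tested directly, and 2 of 27 arms passed, 1 in each direction, where 16.2% of all arms passed, 10.2% higher and 6.02% lower. They were miR-4812-5p, with 1.21 ± 0.38, adjusted p = 0.0288, and miR-2210-3p, with -0.94 ± 0.30, adjusted p = 0.0288 on the log2 scale. The first call ended when any of 7 libraries was left out and the second when any of 5 was, and the count ran from 0 to 4. miR-4812-5p was lost without wild-type L4 replicate 2, wild-type Adult replicate 1 or 3, cdb330 L4 replicate 1 or 2 or cdb330 Adult replicate 1 or 3 (adjusted p up to 0.122). miR-2210-3p was lost without wild-type L4 replicate 2, wild-type Adult replicate 1, cdb330 L4 replicate 3 or cdb330 Adult replicate 2 or 3 (adjusted p up to 0.0877).

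**Figure D4:**
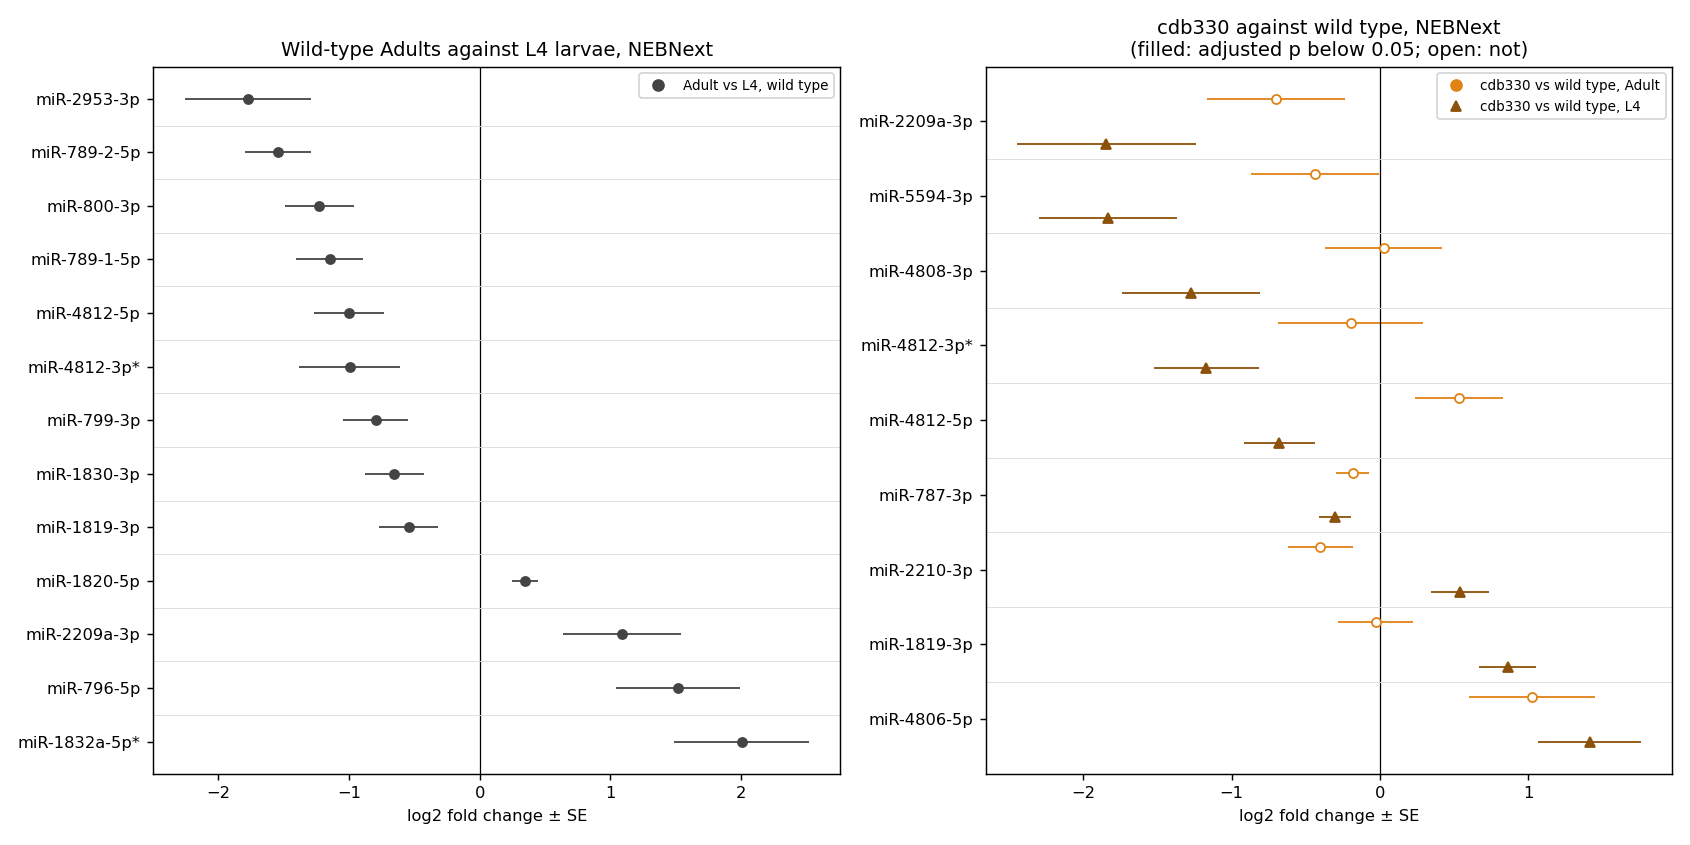
Log2 fold changes ± SE with NEBNext, on the left of wild-type Adults over L4 larvae for the 13 late-numbered arms that passed, and on the right of cdb330 over wild type for the 9 arms that passed at L4. Circles are Adults on the right and the stage comparison on the left, triangles are L4, and filled points have an adjusted p below 0.05. All Adult points on the right are open.

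Between wild-type L4 larvae and Adults, a smaller share of the late-numbered arms passed than of all arms tested, though the share of lower calls was near that over all arms. The late-numbered arms are rarer by median, and no comparison at matched abundance was made. Of 27 arms, 13 passed with NEBNext, 9 lower and 4 higher in Adults than at L4, where 66.7% of all arms passed, 38% lower and 28.7% higher. The median log2 fold change was -0.51 over the 27 arms and -0.28 over all arms tested. The mir-789 5p arms and miR-800-3p were among those lower in Adults. miR-789-2-5p was at 15.6, 12.3 and 6.101 CPM in wild-type Adults and 55.7, 48.7 and 44.7 CPM in L4 larvae (-1.55 ± 0.25, adjusted p = 1.73e-05). miR-789-1-5p was at 16.4, 8.86 and 7.98 CPM in Adults and 41.3, 37.04 and 31.5 CPM in L4 larvae (-1.15 ± 0.25, adjusted p = 4.87e-04). miR-800-3p was at 6.33, 6.16 and 7.51 CPM in Adults and 18.98, 25.04 and 23.7 CPM in L4 larvae (-1.23 ± 0.26, adjusted p = 3.74e-04). None of these 3 overlapped between stages.

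miR-2953-3p fell to 1.49, 1.93 and 0.469 CPM in Adults, against 6.602, 7.05 and 6.84 CPM at L4 (-1.77 ± 0.48, adjusted p = 0.00304). Both arms of mir-4812 were lower too, miR-4812-5p at 5.22, 8.48 and 8.45 CPM in Adults against 18.6, 24.3 and 20.5 CPM at L4 (-1.002 ± 0.27, adjusted p = 0.00266) and miR-4812-3p* at 2.61, 2.31 and 2.35 CPM in Adults against 6.19, 7.76 and 7.301 CPM at L4 (-0.997 ± 0.39, adjusted p = 0.0274). miR-799-3p (-0.80 ± 0.25), miR-1830-3p (-0.66 ± 0.23) and miR-1819-3p (-0.54 ± 0.23) had smaller log2 fold changes. The calls of miR-4812-3p*, miR-1819-3p, miR-1830-3p and miR-799-3p were lost without at least 1 library. These were wild-type L4 replicate 2 or 3 or wild-type Adult replicate 2 or 3 (adjusted p up to 0.0809) for miR-4812-3p* and wild-type L4 replicate 1 or 2 or wild-type Adult replicate 2 or 3 (adjusted p up to 0.145) for miR-1819-3p. For miR-1830-3p they were wild-type L4 replicate 2 or wild-type Adult replicate 2 (adjusted p up to 0.0804), and for miR-799-3p wild-type Adult replicate 2 (adjusted p up to 0.0569).

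4 arms were higher in Adults. miR-1832a-5p* was at 4.47, 3.85 and 9.39 CPM in Adults and 1.65, 1.76 and 2.74 CPM at L4 (2.01 ± 0.52, adjusted p = 0.002), and miR-796-5p at 4.84, 3.85 and 3.29 CPM in Adults and 2.06, 2.12 and 1.83 CPM at L4 (1.52 ± 0.47, adjusted p = 0.00771). miR-796-5p reached 10 reads in Adults alone and miR-2953-3p at L4 alone, so the filter favoured these directions. miR-2209a-3p overlapped between stages, at 11.9, 7.32 and 5.63 CPM in Adults and 3.71, 2.47 and 11.9 CPM at L4 (1.09 ± 0.45, adjusted p = 0.0369). Its call was lost without wild-type L4 replicate 1 or 2 or wild-type Adult replicate 1 (adjusted p up to 0.271). miR-1820-5p had fewer CPM in Adults, 735, 779 and 724 CPM against 878, 839.8 and 839 CPM at L4, but a positive log2 fold change after TMM scaling (0.34 ± 0.10, adjusted p = 0.00455). Its direction thus hung on the scaling, at -0.19 with total counts and -0.41 with spike-ins, and the call was lost without wild-type L4 replicate 1 (adjusted p up to 0.102). Total counts shifted the median of all arms by -0.53 and spike-ins by -0.77, and the calls were then 1 higher and 14 lower, and 1 higher and 18 lower. Of all 216 arms tested, 27 were higher and 129 lower with total counts, and 21 higher and 148 lower with spike-ins.

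The tagged strain had less miR-2210-3p than wild type as well. It was at 7.27 and 7.19 CPM in Adults with drsh-1::gfp and tdp-1::mScarlet, against 28.3, 25.8 and 24.4 CPM in wild-type Adults (-1.77 ± 0.27, adjusted p = 1.37e-05). miR-787-3p was at 170.2 and 209.8 CPM in the tagged Adults and 248, 282 and 329 CPM in wild type (-0.49 ± 0.13, adjusted p = 0.00412), a call lost without tagged Adult replicate 1 (adjusted p up to 0.154). These were the only 2 of 27 arms past the threshold, both lower, where 27.6% of all arms passed. The labels tie both tags to the same strain, so their parts in the result cannot be told apart. On the spike-in scale the median of all arms moved by 1.98, 22 of the 27 arms were higher and 0 lower, and miR-2210-3p was at 0.20 and miR-787-3p at 1.49. Of all 217 arms tested, 201 were higher and 2 lower on that scale. Between tagged Adults with drsh-1(null) and tagged Adults without it, none of 27 arms passed with edgeR, where 0.461% of all arms passed. At an unadjusted p below 0.05 there were 2 arms, and DESeq2 called 1. miR-2210-3p was at 3.88 and 9.704 CPM with drsh-1(null) and 7.27 and 7.19 CPM without it, and miR-787-3p at 229 and 275 CPM with drsh-1(null) and 170.2 and 209.8 CPM without it (0.36 ± 0.14, adjusted p = 0.141).

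Which arm of a hairpin was read most depended on the protocol for 3 of the 11 hairpins with at least 20 reads in wild-type Adults by both. For mir-789-1, 96.4% of reads were on the 3p arm with bias-minimized adaptors (exact binomial 95% interval 94.6% to 97.8%), against 11.6% with NEBNext (5.92% to 19.8%). mir-789-2 gave 96.3% (94.4% to 97.7%) and 13% (7.11% to 21.2%). mir-800 went the other way, with 23.7% on the 3p arm with bias-minimized adaptors (11.4% to 40.2%) and 84.5% with NEBNext (72.6% to 92.7%). The files star the 3p arms of mir-789, which were the minor arms with NEBNext. The tables were made separately and no test was run across them, and the reads are not independent molecules where no molecular identifiers were used. The arms reduced in cdb328 were thus partly different arms of the same hairpins: for mir-800, miR-800-3p was tested with NEBNext and miR-800-5p with bias-minimized adaptors, and both were lower.

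All 41 bias-minimized libraries had more 3p than 5p reads of both mir-789 copies, with 3p shares of 90.3% to 100% for mir-789-1 and 79.6% to 100% for mir-789-2. With NEBNext the 5p arm had more reads in 22 of 22 libraries for mir-789-1 and in 20 of 22 for mir-789-2, with 3p shares of 2.22% to 34.8% and 0% to 88.9%. The 3p* reads of the 2 copies stood in a ratio of 0.812 to 1.27 over the bias-minimized libraries, with a median of 1.02. The other hairpins kept their main arm in the summed reads. For mir-797 the main arm is uncertain, with 41.2% on the 3p arm with NEBNext (24.6% to 59.3%). With bias-minimized adaptors its summed 3p share was 19.5%, but single libraries ran from 5.17% to 100%. The 3p share was 92.6% with bias-minimized adaptors and 100% with NEBNext for mir-787, 67.9% and 97.0% for mir-2210, 70.4% and 93.3% for mir-1830, and 6.5% and 0.449% for mir-1820.

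**Figure D5:**
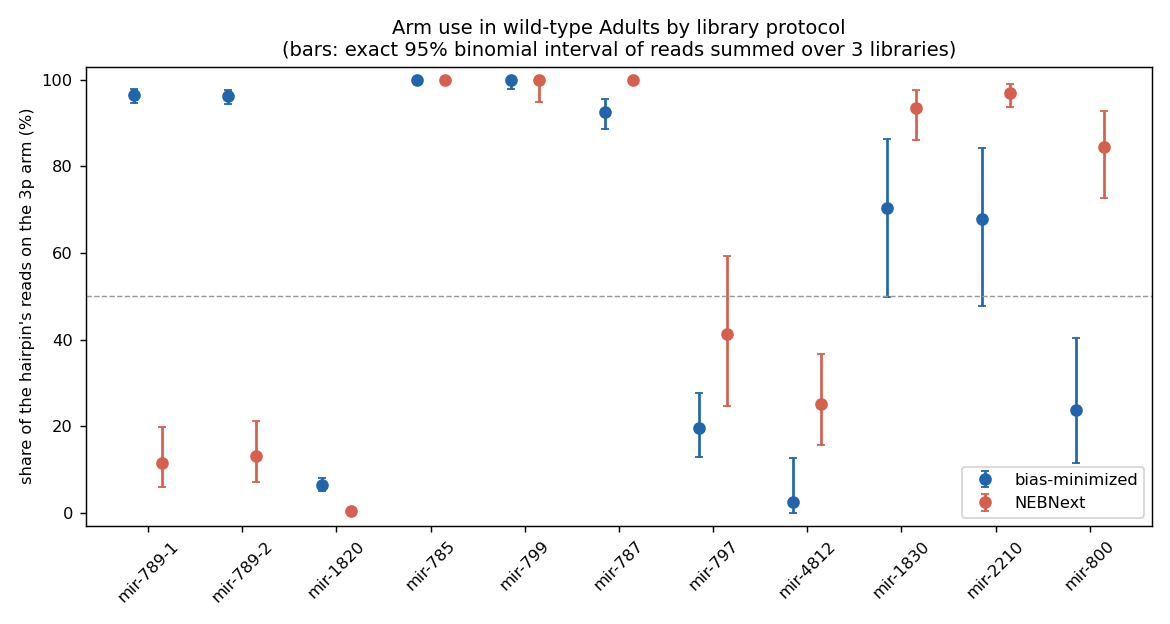
Share of each hairpin's reads on the 3p arm in wild-type Adults, in percent, for the 11 hairpins with at least 20 reads by both protocols. Blue points are bias-minimized libraries, red points NEBNext libraries, each summed over 3 libraries, with exact 95% binomial intervals, and the dashed line is at 50%. mir-789-1 and mir-789-2 lie above the line in blue and below it in red, and mir-800 the other way round.

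The remaining arms were too rare to test. Of the 58 arms, 27 were tested in no comparison, and 7 hairpins had no tested arm (mir-1832b, mir-2208a, mir-2209b, mir-2209c, mir-2218a, mir-2218b and mir-2221). Over the NEBNext libraries 29 arms never reached 10 reads in a library and 4 had no read at all, and over the bias-minimized libraries these counts were 33 and 2. Changes of these arms in drsh-1 mutants were not tested. Among them, miR-2210-5p* had 10 reads over the 16 drsh-1 mutant libraries of the mir-80 series and 46 reads over the 16 with intact drsh-1, and miR-1819-5p* had 9 and 47 reads in the same sets. Both were picked for these values, which give a description and no test. The limit that a count of 0 allows, 3 reads, corresponds to between 0.539 and 1.59 CPM in the NEBNext libraries.

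For comparison, miR-62-3p of the mirtron mir-62, which is not a late-numbered miRNA, was higher in cdb328 than in wild type after TMM scaling. Its log2 fold changes were 1.07 ± 0.14 at L4 (adjusted p = 5.24e-07) and 1.52 ± 0.14 in Adults (adjusted p = 3.08e-09). In the bias-minimized Adults it was 0.93 ± 0.06 (adjusted p = 2.73e-05) and over the mir-80 backgrounds 0.79 ± 0.13 (adjusted p = 2.46e-05). The other arm, miR-62-5p*, did not pass by the same test with bias-minimized adaptors. It was at -0.57 ± 0.53 (adjusted p = 0.452) in cdb328 Adults and -0.01 ± 0.39 (adjusted p = 0.998) over the mir-80 backgrounds.

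The summed share of miRNA reads on the 58 arms followed miR-1820-5p and the other abundant arms more than the many rare ones. It was 0.230% ± 0.0108 in cdb328 L4 larvae, 0.231% ± 0.00648 in cdb330 and 0.224% ± 0.00369 in wild type (SD, n = 3 each). In Adults it was 0.199% ± 0.00308 in cdb328, 0.169% ± 0.00161 in cdb330 and 0.166% ± 0.00261 in wild type (SD, n = 3 each). The tagged Adults had 0.142% ± 0.00334 with drsh-1(null) and 0.136% ± 0.000185 without it (SD, n = 2 each). The share is thus higher in cdb328 Adults, where 11 of the tested arms were lower, and every cdb328 library (0.195% to 0.202%) lay above every wild-type library (0.163% to 0.168%). These are descriptions of a sum over chosen members, and no test was run on it.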

How the data were processed

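Reads per miRNA arm were counted with HTSeq, per the submitters' processing notes. The authors deposited 2 tables of estimated counts, and no source used here names their build or annotation. Of the values, 4.64% (NEBNext) and 1.42% (bias-minimized) were not whole, and they were rounded. CPM is reads scaled to 1000000 worm miRNA reads, without the 10 spike-ins. The tests used edgeR 4.0.16 (glmQLFit and glmQLFTest, R 4.3.3) with TMM scaling, in 4 fits, on arms with at least 10 reads in 3 libraries of the fit, with Benjamini-Hochberg adjustment over all arms. DESeq2 1.42.0 was an alternative, with other scalings and filters, single libraries left out and the replicate number as a block. Scripts were tested on simulated data. Every library has its own column. No replicate pair agreed within sampling noise (lowest chi-square per degree of freedom 17.4 over 57 pairs).

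In the bias-minimized Adults all 9 same-number correlations were over 0.1 (median 0.609), so the numbers pair these libraries by the data, not by a label. Members and lists were chosen with earlier results of these data known. Any arm past the threshold could be named, as could the mir-1018, mir-1019 and mir-1020 arms and the most abundant arms of each table. Sequences are not printed.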

Additional observations from a re-analysis of the deposited data

Results flagged for a closer look

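2 results were singled out because the effect of cdb330 differed between the stages by a direct test of that difference. For miR-4812-5p the cdb330 effect was 1.21 ± 0.38 higher in Adults than at L4 on the log2 scale (edgeR, adjusted p = 0.0288). For miR-2210-3p it was lower by the same measure, at -0.94 ± 0.30 (adjusted p = 0.0288). miR-4812-5p had 13.2, 7.65 and 11.1 CPM in cdb330 Adults and 5.22, 8.48 and 8.45 CPM in wild-type Adults, and 12.3, 11.1 and 19.04 CPM in cdb330 L4 larvae and 18.6, 24.3 and 20.5 CPM in wild-type L4 larvae. miR-2210-3p was below wild type in cdb330 Adults by estimate and above it at L4. Both calls ended when any of several single libraries was left out. For miR-4812-5p this held for 7 libraries (adjusted p up to 0.122) and for miR-2210-3p for 5 (adjusted p up to 0.0877).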

How the results depend on the processing

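Of 64 calls of single arms, 31 held under every alternative tried, among them those of miR-2210-3p, miR-789-2-5p, miR-787-3p and miR-800-3p in cdb328 at both stages and of miR-2210-3p, miR-800-5p, miR-787-3p and miR-789-1-5p over the mir-80 backgrounds. Of 1203 alternative values, 1054 stayed on the same side of the threshold, 143 fell below it and 6 changed direction. The 6 that changed direction were 4 on the spike-in scale for miR-787-3p in cdb330 at L4 (0.34) and in the tagged strain (1.49), miR-2210-3p in the tagged strain (0.20) and miR-1820-5p in bias-minimized cdb328 Adults (-0.0023), and miR-1820-5p between stages with total counts (-0.19) and spike-ins (-0.41). Counts of arms past the threshold that moved by over 1.5 times were as follows. With spike-ins, cdb330 at L4 gave 16, its stage difference 6, drsh-1(null) in the tagged strain 4, the tagged strain against wild type 22, and drsh-1(cdb263 cdb328) with normal mir-80 gave 0. In the same order, all arms gave 126 higher and 17 lower, 14 and 56, 0 and 67, 201 and 2, and 0 and 24. With the compared groups alone, cdb330 at L4 gave 5 of 23 tested arms and bias-minimized cdb328 Adults 0 of 9. All arms then gave 26 higher and 35 lower of 209, and 29 and 43 of 181. Bias-minimized cdb328 Adults gave 2 with total counts and 9 of 54 without a filter on low counts. There all arms gave 30 higher and 53 lower, and 37 and 52. DESeq2 and edgeR's own filter each gave 1 for drsh-1(null), where all arms gave 7 higher and 4 lower, and 8 and 1. DESeq2 gave 1 for cdb330 in bias-minimized Adults, where all arms gave 12 higher and 13 lower. For drsh-1(cdb263 cdb328) with normal mir-80 the count of 1 became 0 with total counts, with no filter and with DESeq2, and 2 with DESeq2's size factors, with edgeR's filter and, chosen after seeing the data, without the 2 libraries under 300000 reads and without 20 arms of wide range. For that comparison all arms gave 5 to 26 higher and 23 to 33 lower over these settings. With spike-in reads in the denominator the summed share had medians of 0.127% for NEBNext, 0.0478% for bias-minimized Adults and 0.0669% for the mir-80 series. The causes were not tested.

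Leaving out each library in turn gave counts of 9 to 10 for cdb328 at L4 and 9 to 11 in Adults, 4 to 7 for cdb330 at L4 and 0 to 1 in Adults. They were 9 to 14 between stages, 0 to 0 for the stage difference of cdb328 and 0 to 4 for that of cdb330, 0 to 0 for drsh-1(null) and 1 to 3 for the tagged strain. With bias-minimized adaptors they were 1 to 3 for cdb328 and 0 to 0 for cdb330, 0 to 2 for drsh-1(cdb263 cdb328), 9 to 12 over the mir-80 backgrounds and 0 to 0 for the mir-80 alleles. The counts for cdb330 at L4 were 5 without wild-type L4 replicate 3 or without cdb330 L4 replicate 2, and 4 without cdb330 L4 replicate 1. The matching counts over all arms were not taken, so these ranges describe the stability of the calls only. In the NEBNext libraries same-numbered libraries had a median correlation of 0.0212, with 6 of 45 over 0.1, and 5 of 18 libraries correlated best with their own number. In the mir-80 series the median was -0.0148, with 48 of 160 over 0.1 and a highest of 0.852, and 15 of 32 libraries correlated best with their own number. By the rule that every pair should be over 0.1, neither set was taken as paired. With the replicate number as a block, drsh-1(cdb263 cdb328) with normal mir-80 gave 0 calls in place of 1, with miR-2210-3p at -1.81. Over all arms 10 were then higher and 25 lower. Depth limits the rare arms, since 27 of 58 could not be tested.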

Other observations

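2 low arms, both among the 18 tested in the mir-80 series, were uneven between libraries of the same group. miR-797-5p* was above 20 CPM in 10 of the 41 bias-minimized libraries, at 25.8 to 126 CPM, and at or below 2.56 CPM in the other 31, of which 18 had no read. Libraries of both kinds occurred within 9 groups. Of the 10, 7 were replicate 3 of their group, out of 11 such libraries, against 2 of 15 for replicate 2 and 1 of 15 for replicate 1. In wild-type Adults the 3 libraries had 27.1, 0 and 52.8 CPM. The opposite arm, miR-797-3p, ranged from 0 to 51.4 CPM over all 41. miR-789-2-5p was above 10 CPM in 8 of the 32 mir-80 series libraries, at 11.8 to 122 CPM, all of them with intact drsh-1, and 15 libraries had no read. These 15 were 8 of the 16 drsh-1 mutant libraries and 7 of the 16 intact ones, among them all 3 of wild type.

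The libraries with the cdb530 allele of mir-80 had less miR-785-3p than the others of their series. It was at 54.1 and 102 CPM with cdb328 and cdb530, against 158 to 410 CPM in the other 14 drsh-1 mutant libraries. With intact drsh-1 it was at 99.5 to 136 CPM with cdb530, against 194 to 401 CPM in the other 13 libraries. miR-799-3p and miR-1820-5p were low as well in the drsh-1 mutant libraries with cdb530. With cdb328 and cdb530, miR-799-3p was at 51.9 to 58.8 CPM, against 71.4 to 155 CPM in the other drsh-1 mutant libraries, and miR-1820-5p at 148 to 242 CPM, against 275 to 576 CPM. With intact drsh-1 the ranges overlapped for both, at 61.6 to 107 CPM with cdb530 against 80.1 to 172 CPM for miR-799-3p, and 90.004 to 295 CPM against 231 to 494 CPM for miR-1820-5p. The 3p* arms of mir-789 went the other way with cdb328 and cdb530. miR-789-1-3p* was at 510 and 323 CPM, against 75.4 to 266 CPM in the other drsh-1 mutant libraries. miR-789-2-3p* was at 470 and 364 CPM, against 77.7 to 237 CPM. With intact drsh-1 the ranges of both overlapped, and those of miR-787-3p overlapped with either drsh-1 state. These differences were seen in the values and were not tested.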
